A study of Gallus gallus with 6 samples.

Results

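The solute carrier (SLC) genes described here encode membrane proteins that move amino acids, sugars, neurotransmitters, osmolytes, lactate and ions, many of them by coupling the flow of sodium, protons, chloride or bicarbonate to that of a second solute. They were taken as all genes whose symbol in the array annotation belongs to the families SLC1 to SLC9, SLC12, SLC16 or SLC38, with the exception of *slc2a1*. This gave 94 genes of 11536 with a symbol, each read from the brightest of its probe sets over 6 arrays. Of these, 91 encode carriers or, for *slc3a1*, the heavy chain of a carrier, and 3 matched by name only. These 3 were *slc4a1ap*, and the scaffold proteins *slc9a3r1* and *slc9a3r2*, which bind sodium-proton exchangers. A further 3 probe sets were assigned to several genes at once and were not named. The values are log2 intensities from Affymetrix arrays of chick embryos (Hypeco Nera) at the internal pipping (IP) stage, when the embryo breaks into the air cell. They cover the pulmonary artery-sided (proximal) part of the right ductus arteriosus (DA), its descending aorta-sided (distal) part, and the descending aorta. There were 2 arrays per tissue, each labelled from 100 ng of RNA that came from the pooled vessels of 10 embryos, and no treatment is given for any group. Whether both arrays of a tissue share a pool is not stated, and p-values therefore reflect only array-to-array spread, which may be technical.

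SLC1 carriers take up glutamate or exchange neutral amino acids, SLC38 and SLC6 carriers use the sodium gradient to take up amino acids, amines and osmolytes, and SLC7 proteins carry cationic amino acids or, in a dimer with a heavy chain of the SLC3 family, exchange amino acids. In arterial smooth muscle, the bicarbonate carriers of SLC4 and the sodium-proton exchangers of SLC9 are known for setting intracellular pH, which bears on contraction, and the cation-chloride carriers of SLC12 for setting intracellular chloride. SLC2 and SLC5 proteins carry glucose, other sugars and inositol, and SLC16 proteins carry lactate and related acids. SLC8 proteins exchange sodium for calcium.

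The intensity of 71 of the 94 genes lay above the lower quartile of every array (5.25 to 5.41), and that of 14 genes (14.9%) below it on all 6 arrays, against 12.6% of all genes. Values that low cannot be told from background, and the files hold no detection call. The 14 were *slc1a1*, *slc1a6*, *slc2a11l4*, *slc5a7*, *slc5a12*, *slc6a5*, *slc6a11*, *slc6a18*, *slc6a19*, *slc7a9*, *slc7a13*, *slc9a2*, *slc9a3* and *slc38a11*, among them carriers known from gut and kidney epithelium or from neurons. In the tissues as a whole, markers of smooth muscle and endothelium were present on every array. The 7 measured smooth muscle markers averaged 11.34 to 11.50 in the proximal DA, 11.14 to 11.21 in the distal DA and 9.61 to 9.67 in the aorta. In pooled tissue, fewer cells of a type and less RNA per cell cannot be told apart.

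In the comparison of the proximal DA with the aorta, 13 of the 94 genes passed the test. Called means a Benjamini-Hochberg adjusted p under 0.05 in a limma fit over all 20804 probe sets and 6 arrays. The 5 genes called higher in the proximal DA were *slc38a4*, *slc9a7*, *slc6a2*, *slc4a4* and *slc6a6*, and the 8 called lower were *slc1a3*, *slc5a3*, *slc6a14*, *slc1a4*, *slc6a4*, *slc16a14*, *slc7a5* and *slc2a10*. This was 5.32% higher and 8.51% lower. Over all genes, the share called was 4.58% higher and 2.70% lower, and over all probe sets 3.33% and 2.34%. The median log2 difference of the 94 genes was 0.02, against 0.00 over all genes and -0.015 over all probe sets. At an unadjusted p under 0.05, 18 were higher and 13 lower, beside 10.6% and 9.62% of all genes. The count of lower genes was 5 without either aorta array, and it was 4 when replicate 1 of the proximal DA was left out and 3 when its replicate 2 was.

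**Figure D1:**
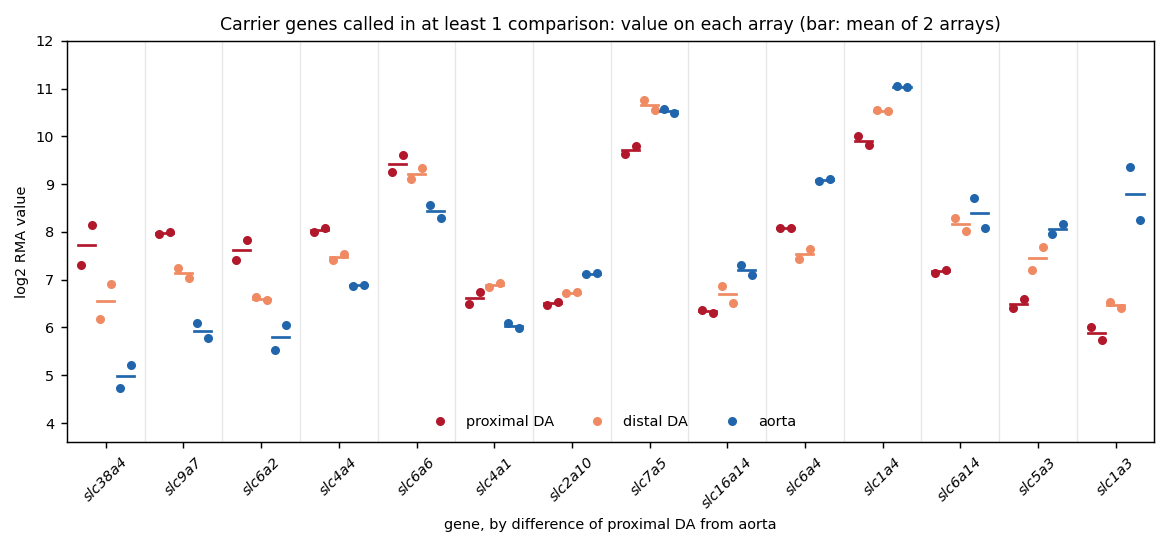
Log2 intensity (vertical axis) of the 14 genes called in at least 1 comparison, ordered along the horizontal axis by the difference between the proximal DA and the aorta; each point is 1 array and each bar the mean of 2 arrays. *slc38a4*, *slc9a7*, *slc6a2* and *slc4a4* step down from proximal DA over distal DA to aorta, and *slc1a3*, *slc5a3* and *slc1a4* step up.

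Fewer of these genes were called in the distal DA. Against the aorta, *slc9a7* and *slc4a1* were higher and *slc6a4* and *slc1a3* lower, which was 2.13% of the 94 genes in each direction, beside 1.30% higher and 0.702% lower over all genes, and 0.952% and 0.644% over all probe sets. At an unadjusted p under 0.05, 11 were higher and 8 lower, beside 6.47% and 5.52% of all genes. The median log2 difference of the 94 genes from the aorta was 0.05, against -0.005 over all genes and also over all probe sets. Leaving out 1 array gave 0 or 1 genes higher and 0 to 2 lower, with 0 higher without aorta replicate 2, distal DA replicate 1 or distal DA replicate 2, and 0 lower without distal DA replicate 1. Between the proximal and the distal DA, 0 of the 94 genes were called by limma, with 8 higher and 5 lower at an unadjusted p under 0.05, beside 5.22% and 3.32% of all genes. Over all genes, 0.234% were called higher and 0.139% lower in that comparison, and over all probe sets 0.159% and 0.0913%. With eBayes set to trend and robust, or with the dimmer probe sets left out, 1 gene was called, *slc7a5*, which was lower in the proximal DA. Both comparisons with the aorta used the same aorta arrays. *slc9a7*, *slc1a3* and *slc6a4* were called in both.

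**Figure D2:**
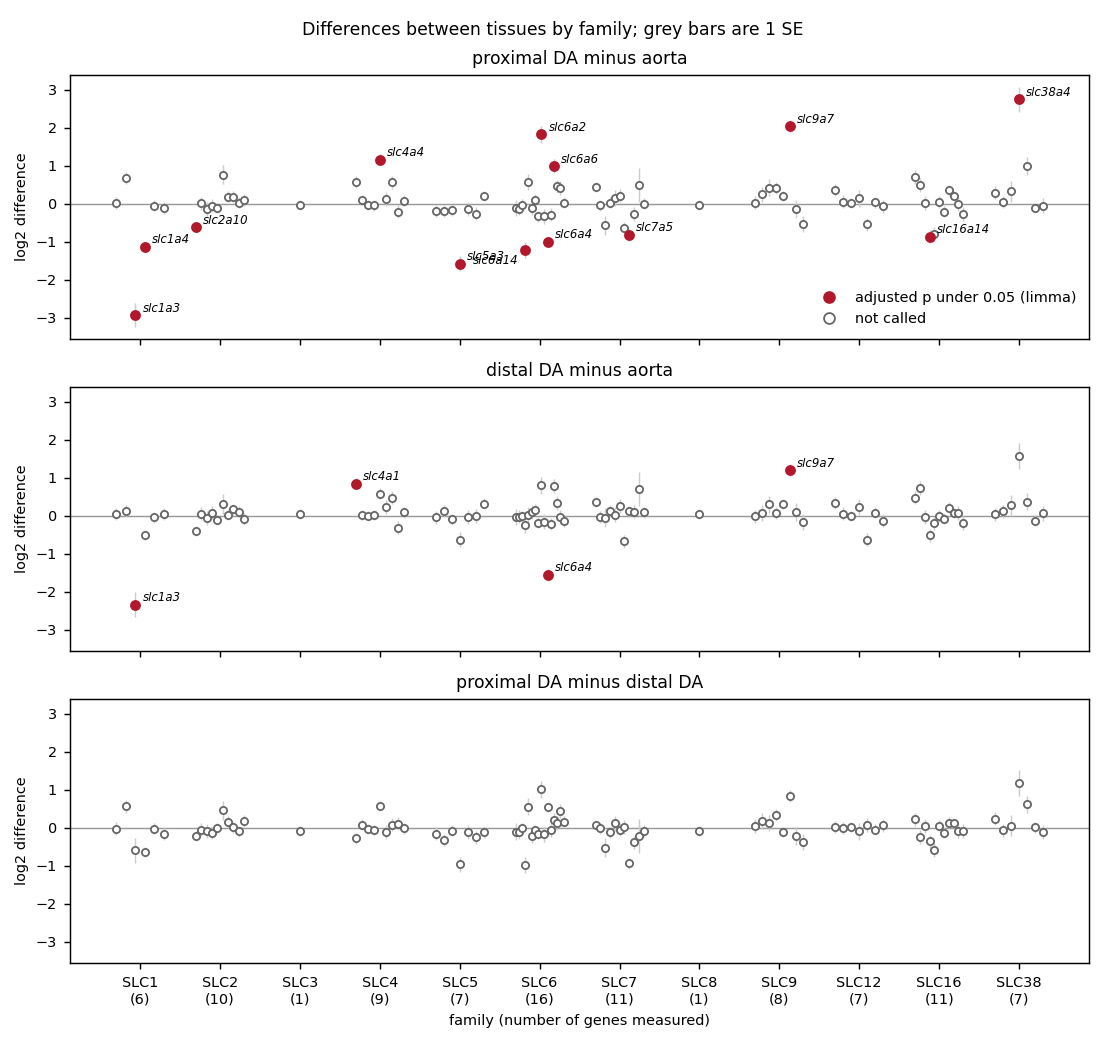
Log2 difference (vertical axis) of each of the 94 genes by SLC family (horizontal axis, with the number of genes in brackets) in 3 comparisons; points are genes, grey bars are 1 SE from limma and filled points passed an adjusted p of 0.05. The proximal DA against the aorta has 13 filled points spread over 9 families, the distal DA against the aorta 4, and the proximal against the distal DA 0.

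Carriers of amino acids differed in both directions. The glutamate and aspartate transporter *slc1a3* (probe set 15557705), known from astrocytes, read 6.01 and 5.74 in proximal DA, 6.53 and 6.40 in distal DA, and 9.35 and 8.25 in aorta. Every array of the DA lay more than a log2 unit below both aorta arrays. The proximal DA differed from the aorta by -2.92 (SE 0.32, limma adjusted p = 0.00293), a 7.59-fold lower intensity. In the distal DA it was -2.33 (adjusted p = 0.0188, limma), and this call was lost without any 1 of the 4 arrays of the DA (adjusted p = 0.0559 to 0.115 from limma). The 2 aorta arrays differed from each other by 1.10, more than for any other of the 94 genes in the aorta.

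The neutral amino acid exchanger *slc1a4*, which carries serine and alanine, followed the same order with a smaller spread. It read 10 and 9.82 on the proximal DA arrays, 10.56 and 10.52 on those of the distal DA and 11.05 and 11.03 on those of the aorta, so that no tissue overlapped with another. The proximal DA was lower than the aorta by a log2 difference of -1.13 (SE 0.14, limma adjusted p = 0.00461), with any array left out as well. The distal DA lay -0.50 from the aorta (limma adjusted p = 0.188, 95% interval -0.83 to -0.17 without adjustment). The other glial glutamate transporter, *slc1a2*, did not go with *slc1a3*: its values were 7.79 and 7.85 in the proximal DA, against 7.16 and 7.35 in the distal DA and 7.29 and 6.97 in the aorta. Both proximal arrays were above the other 4, at 0.69 over the aorta (limma adjusted p = 0.0563). *slc1a7*, the last gene of the family with values partly above the lower quartile, read 5.28 to 5.62 on all arrays.

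Among the sodium-coupled neutral amino acid transporters of SLC38, *slc38a4*, known from mammalian liver and placenta, had the largest difference of all 94 genes in the upward direction. It read 7.31 and 8.14 in proximal DA, 6.18 and 6.91 in distal DA, and 4.74 and 5.21 in aorta. Both aorta values lay below the lower quartiles of their arrays, so the size of the difference is not exact. The proximal DA was higher than the aorta by 2.75 (SE 0.34, limma adjusted p = 0.00461), and the distal DA lay 1.57 above it (limma adjusted p = 0.0868). Replicate 2 was the higher one in each tissue. In a fit that also blocked on the replicate number, *slc38a4* was called in the distal DA as well.

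*slc38a2* is the next protein-coding gene to *slc38a4* in the GRCg7b assembly and encodes the main carrier of its kind, induced when amino acids run short. Its values were 11.16 and 11.50 on the proximal DA arrays, 11.36 and 11.43 on those of the distal DA and 11.35 and 11.20 on those of the aorta. The proximal DA values spanned those of both other tissues, and their difference from the aorta was 0.06 (95% interval -0.33 to 0.44, limma). *slc38a6* read 7.94 and 8.31 in the proximal DA, against 7.66 and 7.35 in the distal DA and 7.40 and 6.86 in the aorta. The proximal DA lay 0.99 above the aorta, which just missed the threshold (limma adjusted p = 0.0512). *slc38a9*, the lysosomal arginine sensor, read 6.66 to 7.18 over the 6 arrays, and the aorta values spanned those of both parts of the DA.

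The large neutral amino acid exchanger *slc7a5*, which brings leucine into cells, was set apart by the proximal DA alone. It read 9.63 and 9.80 in proximal DA, 10.75 and 10.55 in distal DA, and 10.57 and 10.49 in aorta. The values of the distal DA and the aorta overlapped, while both proximal arrays lay below all 4. The proximal DA was lower than the aorta by -0.81 (SE 0.15, limma adjusted p = 0.0214) and lay -0.94 from the distal DA (limma adjusted p = 0.0712). No other of the 94 genes had a smaller adjusted p between the 2 parts of the DA. This adjusted p from limma was 0.0444 with trend and robust and 0.0342 with the dimmer probe sets left out, and 0.0887 to 0.495 with 1 array left out. The call against the aorta was lost without any 1 proximal DA or aorta array (limma adjusted p = 0.0627 to 0.102). Its heavy chain partner *slc3a2* was not analysed here. The heavy chain *slc3a1*, the 1 measured gene of its family, stayed between 5.70 and 5.81 on all arrays (proximal DA minus aorta -0.02, 95% interval -0.33 to 0.29, limma).

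The other 10 genes of SLC7 were not called in any comparison. The cationic amino acid carriers *slc7a1* and *slc7a3*, which take up arginine, lay on opposite sides of the aorta. *slc7a1* read 9.24 and 9.36 on the proximal DA arrays, 9.28 and 9.17 on those of the distal DA and 8.92 and 8.79 on those of the aorta (proximal DA minus aorta 0.44, limma adjusted p = 0.139). *slc7a3* read 8.51 and 8.41 in the proximal DA, against 8.28 and 8.59 in the distal DA and 8.95 and 9.25 in the aorta (proximal DA minus aorta -0.64, limma adjusted p = 0.0899). In both genes the 2 parts of the DA overlapped and lay to 1 side of the aorta. *slc7a7* was the least repeatable gene of the 94 in either part of the DA. It read 6.21 and 7.42 in proximal DA, 6.57 and 7.47 in distal DA, and 5.97 and 6.64 in aorta, with replicate 2 higher each time. The cystine-glutamate exchanger *slc7a11* read 5.09 and 4.92 in the proximal DA, near background, against 5.25 and 5.88 in the aorta (limma adjusted p = 0.288).

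The sodium- and chloride-coupled SLC6 carriers were the largest family here, with 16 genes. For proximal DA minus aorta, 4 were called. Of these, 2 were higher and 2 lower (12.5% each), beside 4.58% and 2.70% of all genes. For distal DA minus aorta, 0 were called higher and 1 lower (6.25%), beside 1.30% and 0.702% of all genes. The noradrenaline transporter *slc6a2*, known from sympathetic nerve endings, read 7.41 and 7.84 on the proximal DA arrays, 6.64 and 6.57 on those of the distal DA and 5.53 and 6.06 on those of the aorta. The tissues did not overlap. The proximal DA was higher than the aorta by 1.83 (SE 0.22, limma adjusted p = 0.00431), a 3.56-fold higher intensity, and lay 1.02 above the distal DA (limma adjusted p = 0.181). The difference of the distal DA from the aorta was 0.81 (limma adjusted p = 0.175).

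Of 10 measured markers of nerve and Schwann cells, 0 were called in the proximal DA against the aorta by limma, with 2 higher and 1 lower at an unadjusted p under 0.05. Among all genes, 4.58% were called higher and 2.70% lower in that comparison. At an unadjusted limma p under 0.05 these shares were 10.6% and 9.62%. Tyrosine hydroxylase, *th*, the first enzyme of noradrenaline synthesis, lay below the lower quartile on all 6 arrays, as did *nefl*, *nefm* and *s100b*. Dopamine beta-hydroxylase, *dbh*, which makes noradrenaline, read 7.05 and 6.86 in the proximal DA, against 6.85 and 6.87 in the distal DA and 6.87 and 6.93 in the aorta. The list averaged 5.99 to 6.11 in the proximal DA, 5.86 to 5.88 in the distal DA and, on both arrays, 5.94 in the aorta. Neuronal tubulin, *tubb3*, read 6.65 and 6.71 in proximal DA, 5.54 and 5.86 in distal DA, and 6.14 and 6.02 in aorta. The glial factor *sox10* had the same order of tissues. In both genes, the 2 higher markers, the distal DA was lowest, while *slc6a2* was lowest in the aorta. The lower marker was *fabp7*, with 6.14 and 6.23 in proximal DA, 6.34 and 6.10 in distal DA, and 6.69 and 6.59 in aorta. The part of nerve tissue in the difference of *slc6a2* was not tested.

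The serotonin transporter *slc6a4* had the opposite sign and another order. It read 8.08 and 8.09 on the proximal DA arrays, 7.43 and 7.64 on those of the distal DA and 9.06 and 9.11 on those of the aorta. Here the distal DA was lowest and the aorta highest, with no overlap. Relative to the aorta, the log2 difference was -1.0 for the proximal DA (SE 0.14, limma adjusted p = 0.00824) and -1.55 for the distal DA (limma adjusted p = 0.00441), and the proximal DA lay 0.55 above the distal DA (limma adjusted p = 0.274). Each call was lost without 1 array: that of the proximal DA without its replicate 2 (limma adjusted p = 0.0555) and that of the distal DA without its replicate 1 (limma adjusted p = 0.0522).

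The taurine transporter *slc6a6* was higher in the proximal DA, by 0.99 over the aorta (SE 0.18, limma adjusted p = 0.0224). It read 9.25 and 9.60 in the proximal DA, against 9.11 and 9.33 in the distal DA and 8.57 and 8.29 in the aorta. Both parts of the DA overlapped and lay above the aorta, at 0.79 for the distal DA (limma adjusted p = 0.109). Without aorta replicate 2 or proximal DA replicate 2 the call was lost (limma adjusted p = 0.0928 to 0.120). The broad amino acid transporter *slc6a14* read 7.15 and 7.21 in proximal DA, 8.30 and 8.01 in distal DA, and 8.70 and 8.08 in aorta. As for *slc7a5*, the distal DA overlapped with the aorta and the proximal DA lay below both, at -1.21 from the aorta (SE 0.22, limma adjusted p = 0.0215) and -0.97 from the distal DA (limma adjusted p = 0.208). The call was lost without either proximal DA array (limma adjusted p = 0.113 to 0.116).

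The remaining 12 genes of SLC6 were not called. The creatine transporter *slc6a8* read 8.99 and 9.46 on the proximal DA arrays, 8.66 and 8.90 on those of the distal DA and 8.75 and 8.86 on those of the aorta (proximal DA minus aorta 0.42, limma adjusted p = 0.310), and its second probe set had a difference of 0.34. The glycine transporter *slc6a9* stayed between 8.28 and 8.58 on all arrays. Of the carriers of GABA and betaine, *slc6a12* and its neighbour in the assembly *slc6a13* overlapped between all tissues, and *slc6a11* was below the lower quartile throughout.

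Of the 17 genes of SLC2 and SLC5, 2 were called against the aorta, both lower in the proximal DA, beside 2.70% of all genes. The inositol transporter *slc5a3*, which cells use to hold an osmolyte, read 6.40 and 6.59 in the proximal DA, against 7.20 and 7.69 in the distal DA and 7.96 and 8.17 in the aorta. All 3 tissues were separate. Proximal values were lower than aorta values by -1.57 (SE 0.20, limma adjusted p = 0.00494), a 2.97-fold lower intensity, and the call was kept with any 1 array left out. The difference was -0.62 for the distal DA from the aorta (limma adjusted p = 0.261) and -0.95 for the proximal from the distal DA (limma adjusted p = 0.156). The proton-coupled inositol carrier *slc2a13* had no such step: it read 7.99 and 8.04 in proximal DA, 7.73 and 7.99 in distal DA, and 7.82 and 7.83 in aorta (proximal DA minus aorta 0.19, 95% interval -0.16 to 0.54, limma).

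*slc2a10* encodes GLUT10, whose loss causes arterial tortuosity syndrome in humans. It read 6.48 and 6.54 on the proximal DA arrays, 6.72 and 6.74 on those of the distal DA and 7.11 and 7.13 on those of the aorta, and the 3 tissues did not overlap. Its level in the proximal DA was lower than the aorta's by -0.61 (SE 0.13, limma adjusted p = 0.0416). This is the called gene nearest the threshold in that comparison, and its call was lost without any 1 of the 6 arrays (limma adjusted p = 0.103 to 0.141) and in a fit of only the 2 tissues compared (limma adjusted p = 0.103). The other 9 genes of SLC2 were not called. *slc2a12* read 5.49 and 6.20 in the proximal DA, against 5.18 and 5.59 in the distal DA and 4.99 and 5.15 in the aorta (limma adjusted p = 0.150 for the proximal DA minus the aorta). *slc2a11* and its copies *slc2a11l1*, *slc2a11l4* and *slc2a11l5*, a group of fructose and glucose carriers whose probe sets may share targets, differed from the aorta by -0.125 to 0.015 in the proximal DA. The sodium-glucose carriers *slc5a1*, *slc5a9* and *slc5a10* were not called either.

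Of the 9 genes of SLC4 and the 8 of SLC9, which include the 3 matched by name only, 3 were called, and all 3 were higher in the DA. Over all genes, 4.58% were called higher in the proximal and 1.30% in the distal DA. The sodium-bicarbonate cotransporter *slc4a4*, which brings base into or out of cells, read 8.0 and 8.09 in proximal DA, 7.41 and 7.53 in distal DA, and 6.87 and 6.89 in aorta. The 3 tissues were separate and evenly spaced. Proximal values were higher than aorta values by 1.17 (SE 0.14, limma adjusted p = 0.00382) with any array left out as well, and lay 0.57 above the distal DA (limma adjusted p = 0.226). The distal DA lay 0.59 above the aorta (limma adjusted p = 0.108). The related *slc4a7*, the electroneutral sodium-bicarbonate cotransporter known from mouse arterial smooth muscle, read 7.64 and 7.93 on the proximal DA arrays, 7.57 and 7.82 on those of the distal DA and 7.20 and 7.23 on those of the aorta. Both parts of the DA lay above the aorta and overlapped with each other, and neither difference was called (0.57 and 0.48, limma adjusted p = 0.106 for the proximal and 0.314 for the distal DA).

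*slc9a7* encodes a sodium (potassium)-proton exchanger of the trans-Golgi network, and it had the smallest p-value of the 94 genes. It read 7.95 and 8.0 in the proximal DA, against 7.24 and 7.03 in the distal DA and 6.09 and 5.77 in the aorta. No 2 tissues overlapped. The proximal DA was higher than the aorta by 2.04 (SE 0.16, limma adjusted p = 0.000956), a 4.13-fold higher intensity. The distal DA was higher by 1.21 (limma adjusted p = 0.0182), and that call was lost without aorta replicate 2 or either distal DA array (limma adjusted p = 0.0631 to 0.150). The step of 0.84 from distal to proximal DA missed the threshold (limma adjusted p = 0.135). The endosomal exchanger *slc9a9* went the other way, with 7.57 and 7.64 in proximal DA, 7.87 and 8.08 in distal DA, and 8.43 and 7.85 in aorta (proximal DA minus aorta -0.54, limma adjusted p = 0.225). *slc9a8*, an exchanger of the same compartments, overlapped between all tissues at 8.39 to 9.0. The scaffold gene *slc9a3r1* lay 0.43 and *slc9a3r2* 0.41 above the aorta in the proximal DA, and neither was called. A second probe set of *slc9a3r2* read 5.34 to 5.55, close to the lower quartiles, with a difference of -0.01.

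The chloride-bicarbonate exchanger *slc4a1* is band 3 of the red cell membrane. It read 6.49 and 6.74 on the proximal DA arrays, 6.84 and 6.94 on those of the distal DA and 6.09 and 5.99 on those of the aorta. It was higher in the distal DA than in the aorta by 0.85 (SE 0.15, limma adjusted p = 0.0437), and lay 0.57 above it in the proximal DA (limma adjusted p = 0.0787). The call was lost without any 1 of the 6 arrays (difference 0.8 to 0.9). It was also lost in a fit of only the 2 tissues, under quantile normalization, under cyclic loess and with a 2-fold minimum. With the replicate number as a term of the fit it was lost too (limma adjusted p = 0.0607). Of 7 measured erythroid markers, 0 were called in the distal DA against the aorta by limma, with 3 higher at an unadjusted p under 0.05. Among all genes, 1.30% were called higher and 0.702% lower in that comparison. At an unadjusted limma p under 0.05 these shares were 6.47% and 5.52%. For 6 of the 7 erythroid markers, both distal DA arrays lay above both aorta arrays, which held for 21.8% of all genes. The margin was at the last decimal for *hbz* (lowest distal DA array 6.58, highest aorta array 6.57) and *tfrc* (6.56 and 6.55). The list averaged 7.09 to 7.70 in the proximal DA, 7.55 to 7.75 in the distal DA and 6.67 to 7.16 in the aorta, and none of it lay below the lower quartile on all arrays. Alpha globin, *hba1*, read 9.65 and 11.21 in the proximal DA, against 10.55 and 11.24 in the distal DA and 8.90 and 10.08 in the aorta. The ammonium channel *rhag*, a partner of band 3 in the red cell membrane, read 5.94 and 6.92 in proximal DA, 6.81 and 7.04 in distal DA, and 5.89 and 5.99 in aorta. The part of blood in the difference of *slc4a1* was not tested.

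**Figure D3:**
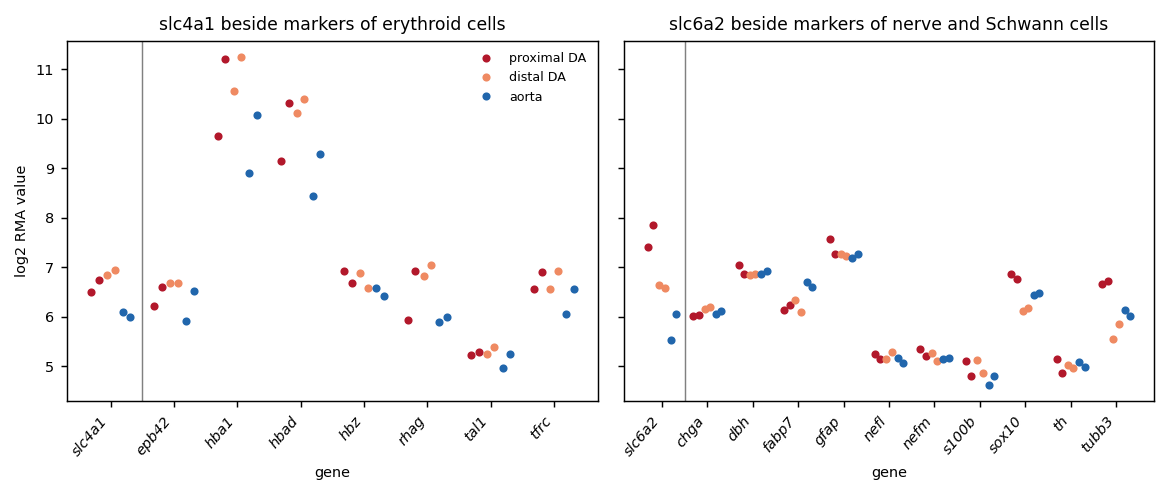
Log2 intensity (vertical axis) on each array of *slc4a1* beside 7 erythroid markers (left) and of *slc6a2* beside 10 markers of nerve and Schwann cells (right); each point is 1 array. The distal DA arrays of *slc4a1* and of 6 of the 7 erythroid markers lie above both aorta arrays, in *hbz* and *tfrc* only just. On the right, *th* stays near 5 on all arrays while *slc6a2* lies between 5.53 and 7.84.

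None of the 7 genes of SLC12, the cation-chloride carrier family, was called in any comparison by limma. Against the aorta, the proximal DA had 1 gene higher and 1 lower at an unadjusted p under 0.05. Among all genes, these shares were 10.6% and 9.62%, and 4.58% were called higher and 2.70% lower. In the distal DA against the aorta the called shares were 1.30% and 0.702%, and between the parts of the DA 0.234% and 0.139%. The potassium-chloride carrier *slc12a7* had the smallest p of the family. It read 5.64 and 6.08 on the proximal DA arrays, 5.82 and 5.74 on those of the distal DA and 6.43 and 6.37 on those of the aorta, so that the DA lay below the aorta on every array (distal DA minus aorta -0.62, limma adjusted p = 0.195). The sodium-potassium-chloride cotransporter *slc12a2*, a target of loop diuretics, read 7.02 and 6.78 in the proximal DA, against 6.98 and 6.76 in the distal DA and 6.52 and 6.54 in the aorta (proximal DA minus aorta 0.37, limma adjusted p = 0.268). *slc12a4* read 8.67 to 8.76 over the 6 arrays (proximal DA minus aorta 0.02, 95% interval -0.29 to 0.33, limma). In the GRCg7b assembly it stands next to *slc6a2*, which was called. The sodium-calcium exchanger *slc8a3*, the 1 measured gene of SLC8, read 5.30 to 5.42, close to the lower quartiles.

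Among the 11 monocarboxylate carriers of SLC16, 0 were called higher and 1 lower (9.09%) for proximal DA minus aorta. Over all genes, these shares were 4.58% and 2.70%. In the other comparisons, 0 genes of this family were called. *slc16a14*, whose substrates are little known, read 6.36 and 6.31 in proximal DA, 6.87 and 6.51 in distal DA, and 7.31 and 7.09 in aorta. The tissues did not overlap, and the proximal DA was lower than the aorta by -0.86 (SE 0.17, limma adjusted p = 0.0292). The call was lost without any 1 proximal DA or aorta array (limma adjusted p = 0.0524 to 0.133). The 2 main lactate carriers lay on opposite sides of the aorta, and neither was called. *slc16a3* (MCT4), known for lactate export from glycolytic cells, read 7.43 and 7.47 on the proximal DA arrays, 8.27 and 7.80 on those of the distal DA and 8.22 and 8.24 on those of the aorta (proximal DA minus aorta -0.78, limma adjusted p = 0.0510). This was the gene just outside the threshold, and it was called lower in a fit of only the 2 tissues, with eBayes set to trend and robust, with the dimmer probe sets left out and without either distal DA array. *slc16a1* (MCT1) read 7.91 and 8.21 in the proximal DA, against 7.67 and 8.0 in the distal DA and 7.30 and 7.41 in the aorta (proximal DA minus aorta 0.71, limma adjusted p = 0.0680). A second probe set of *slc16a1* read 4.99 to 5.39, close to the lower quartiles, with a difference of 0.05. The aromatic amino acid carrier *slc16a10* was highest in the distal DA, at 7.21 and 7.31, against 6.91 and 7.13 in the proximal DA and 6.32 and 6.73 in the aorta (distal DA minus aorta 0.73, limma adjusted p = 0.127).

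Taken by the order of the 3 tissues, 4 of the 94 genes (4.26%) had proximal DA arrays above distal DA arrays above aorta arrays without overlap. These were *slc4a4*, *slc6a2*, *slc9a7* and *slc38a4*, and the order was found in 5.81% of all genes. The reverse order held for 6 genes (6.38%), *slc1a3*, *slc1a4*, *slc2a10*, *slc5a3*, *slc6a19* and *slc16a14*, and for 5.23% of all genes. *slc6a19* was below the lower quartile on all arrays. The called genes with another order were *slc6a6*, in which the 2 parts of the DA overlapped, *slc7a5* and *slc6a14*, in which the distal DA overlapped with the aorta, *slc6a4*, with the distal DA lowest, and *slc4a1*, with the distal DA highest. The size of the difference also varied: 4 genes lay at least 1 log2 unit above and 5 at least 1 below the aorta in the proximal DA, against 2 and 2 in the distal DA. Over all 11536 genes these counts were 350 and 177 in the proximal DA and 156 and 69 in the distal DA, so they were smaller in the distal DA there too.

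**Figure D4:**
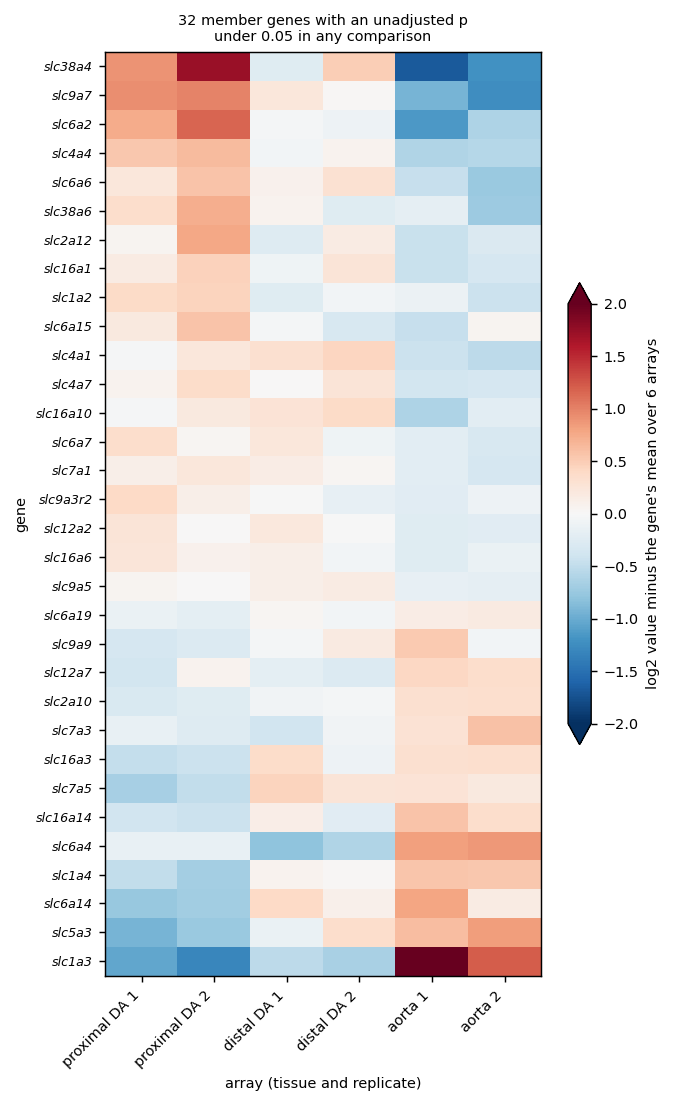
Log2 intensity minus the gene's own mean over 6 arrays (colour) for the 32 genes with an unadjusted limma p under 0.05 in any comparison (rows, by the difference between proximal DA and aorta) on each array (columns). *slc38a4* and *slc1a3* have the strongest colours at the 2 ends, and *slc7a5* and *slc6a14* are blue (below the mean) in the proximal DA columns only.

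Over all genes, 4.58% were called higher and 2.70% lower in the proximal DA against the aorta. Of 22 measured genes of amino acid sensing by mTORC1, a list that includes *slc38a9*, the proximal DA had 0 higher and 1 lower. This was *sesn1*, a sestrin that restrains mTORC1, with 9.04 and 8.98 in proximal DA, 9.92 and 10 in distal DA, and 10.74 and 10.63 in aorta (proximal DA minus aorta -1.68, limma adjusted p = 0.00101). Of 15 genes of the amino acid response and of amino acid synthesis, *atf3* was higher (1.07, limma adjusted p = 0.0406) and *aldh18a1*, an enzyme of proline synthesis, lower (-1.41, limma adjusted p = 0.00164), and the median was -0.08 for the proximal DA and -0.04 for the distal DA. *aldh18a1* was also lower in the distal DA (-0.98, limma adjusted p = 0.0182).

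For the next lists, the shares over all genes in the proximal DA against the aorta were 4.58% called higher and 2.70% lower. At an unadjusted p under 0.05 they were 10.6% and 9.62%. Of 11 genes of glutamate and glutamine metabolism, the proximal DA had 1 higher and 0 lower against the aorta by limma, with the same counts at an unadjusted p under 0.05. It was *got2*, the mitochondrial aspartate aminotransferase, with 9.90 and 10.29 on the proximal DA arrays, 9.58 and 9.89 on those of the distal DA and 8.86 and 9.15 on those of the aorta (1.09, limma adjusted p = 0.0214). Of 21 genes of glycolysis and lactate, 0 were called in the proximal DA by limma (0 higher and 2 lower at an unadjusted p under 0.05), and the median difference was -0.02. Of 12 WNK kinases and partners, which regulate SLC12 carriers by phosphorylation, *cab39l* was lower in the proximal DA (-1.02, limma adjusted p = 0.0115) and in the distal DA (-0.94, limma adjusted p = 0.0378), and no other was called. Of 8 carbonic anhydrase genes, most for enzymes that supply bicarbonate, *ca12* was lower in the proximal DA (-0.85, limma adjusted p = 0.0254). *ca12* read 4.33 and 4.38 there, against 5.38 and 5.04 in the aorta. It lay below the lower quartile on 5 of the 6 arrays, so that the size of this difference is not exact. In the distal DA against the aorta, 1.30% of all genes were called higher and 0.702% lower. At an unadjusted p under 0.05 these shares were 6.47% and 5.52%. Of the carbonic anhydrases 0 were called there, with 3 higher and 1 lower at an unadjusted limma p under 0.05. The 3 higher were *ca13* (1.36, SE 0.55), *ca2* (1.32, SE 0.38) and *ca5a* (0.645, SE 0.16). *ca13* read 8.41 and 9.39 in the distal DA, against 6.97 and 8.11 in the aorta, and *ca2* 8.95 and 9.40, against 7.52 and 8.19. Replicate 2 was the higher one in each tissue for both, as for *hba1*. The part of blood in these differences was not tested. The 3 measured sodium pump subunits and the 4 genes of creatine and taurine synthesis were not called in any comparison. These pump subunits were *atp1b3*, *atp1b4* and *fxyd2*, with no alpha subunit among them. Of the 4 synthesis genes, 3 (*ckmt2*, *gatm* and *gadl1*) lay below the lower quartile on all 6 arrays, so a difference in them could not be seen.

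Markers of some other cell types moved in the same comparisons. In the proximal DA against the aorta, 6 of 7 smooth muscle markers, 7 of 10 endothelial, 3 of 8 lung and airway epithelial and 5 of 8 melanocyte markers were higher, and by limma 0 genes of these lists were lower, nor were any at an unadjusted p under 0.05. Of 9 fibroblast and adventitial markers, 1 was higher and 5 were lower. Among leukocyte markers 1 of 10 was higher, among skeletal muscle markers 1 of 6, and among cardiac muscle markers 0 of 7 were called. The skeletal muscle marker was the actin *acta1* (3.155), and the others of that list differed by -0.13 to 0.165. Of 6 mesothelial markers 0 were higher and 1 was lower. Over all genes, 4.58% were called higher and 2.70% lower. Endothelial markers averaged 8.87 to 9.01 in the proximal DA, 8.62 to 8.69 in the distal DA and 7.68 to 7.72 in the aorta. Fibroblast markers averaged 9.95 to 10.11 in the proximal DA, 10.37 to 10.41 in the distal DA and 10.54 to 10.67 in the aorta. Melanocyte markers averaged 6.27 to 7.06 in the proximal DA, 5.10 to 5.22 in the distal DA and 5.0 to 5.21 in the aorta, and the lung list 7.0 to 7.18 in the proximal DA, 6.08 to 6.20 in the distal DA and 6.04 to 6.20 in the aorta. In the distal DA against the aorta, limma called 0 genes of either list, and 0 had an unadjusted p under 0.05. In that comparison 7 of 7 smooth muscle and 4 of 10 endothelial markers were higher, and of the fibroblast markers 1 was higher and 1 lower (5 lower at an unadjusted p under 0.05). Over all genes, 1.30% were called higher and 0.702% lower. The part of these cell types in the differences of the carriers was not tested.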

How the data were processed

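Total RNA from pooled tissue was hybridised to Affymetrix GeneChip Chicken Gene 1.0 ST arrays, 2 per tissue. The authors normalised the 6 arrays together by RMA in the oligo package and deposited log2 intensities with 2 decimals, 1 value per probe set, without detection calls, with the genome build not given in the sources used. Quantile normalisation within RMA gives all arrays nearly the same distribution, so a shift common to most genes cannot be seen; precision is limited by having 2 arrays per tissue (median SE of a difference 0.17). Differences were tested in limma 3.58.1 (R 4.3.3) with lmFit and eBayes over all 20804 probe sets and 6 arrays, with 3 residual and 4.40 prior degrees of freedom, and adjusted by the Benjamini-Hochberg method within each comparison; 95% intervals are not adjusted. Of several probe sets of a gene the one with the highest mean over 6 arrays was used. The genes described, the related gene lists and the marker lists were chosen with earlier results of these data known. Values are given for each called gene. Uncalled genes were named for their family or role or after their values were seen. The latter include genes just outside the threshold, with the smallest p of a family, or least repeatable. RefSeq (GRCg7b) entries, found for 88 of the 94 genes, served for names and neighbours only. The fit was tested on simulated data. Alternatives changed the arrays fitted, the variance model, the scaling, the filter, the threshold, the replicate term and the probe set. Each of the 6 value columns was matched to a sample.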

Additional observations from a re-analysis of the deposited data

How the results depend on the processing

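The log2 differences of the called genes kept their sign under every alternative run, with the call kept in 209 repeats and lost in 44, while the counts of calls moved as follows. In the proximal DA against the aorta, cyclic loess gave 8 genes higher, adding *slc1a2*, *slc16a1* and *slc38a6*, and a 2-fold minimum left 5 lower. Leaving out 1 array gave 4 to 7 higher and 3 to 8 lower. Without proximal DA replicate 2 there were 4 higher and 3 lower, and without replicate 1 of the proximal DA 5 higher and 4 lower, so that the larger count was then that of the higher genes, as it was without aorta replicate 1 (7 and 5). In the distal DA against the aorta, 1 gene was higher in a fit of only the 2 tissues, with quantile normalization, with cyclic loess, with the dimmer probe sets left out and with a 2-fold minimum (*slc9a7* each time), and 1 was lower (*slc6a4*) in the fit of only the 2 tissues. Leaving out 1 array gave 0 to 1 higher and 0 to 2 lower. Between the proximal and the distal DA, 1 gene was lower (*slc7a5*) with trend and robust and with the dimmer probe sets left out, and 0 were called with any 1 array left out. The cause of these shifts was not tested. Differences of replicate 1 minus replicate 2 correlated across probe sets at 0.32 between proximal and distal DA. This correlation was -0.03 between proximal DA and aorta and 0.20 between distal DA and aorta. Whether arrays with the same replicate number belong together was not tested. With the replicate block, the proximal DA had 6 genes higher and 8 lower against the aorta, the distal DA 2 and 2, and there were 0 and 0 between the parts of the DA. With 2 arrays per tissue and no detection call, differences of genes near the lower quartile of intensity are poorly measured.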
